A study of Mus musculus with 11 samples.

Results

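The prolactin and growth hormone receptor pathway was followed through 9 of the 55536 genes measured in mouse pancreatic islets. These are the receptors *Prlr* and *Ghr*, the kinase *Jak2*, the transcription factors *Stat5a* and *Stat5b*, and the feedback inhibitors *Cish*, *Socs1*, *Socs2* and *Socs3*. They were taken by gene symbol, irrespective of their values, and each symbol belonged to 1 gene in the tables. Prolactin, placental lactogen and growth hormone bind class I cytokine receptors on the cell surface. The bound receptor activates JAK2, which phosphorylates STAT5A and STAT5B, and these move to the nucleus and switch on target genes. Among the targets are *Cish* and *Socs2*, whose products bind the receptor complex and damp the signal. In the pregnant mouse, β cells respond to placental lactogens through the prolactin receptor with serotonin synthesis, which needs *Tph1*, and with division.

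Islets came from wild-type female C57BL/6J mice that entered the study at 9 weeks of age, as virgin littermates or as multipara mice that gave birth after each of 3 consecutive pregnancies. Islets were isolated when 3 weeks had passed since the last delivery, so no animal was pregnant, and the pups had been taken from their mothers. Within each parity group, some mice were injected intraperitoneally with S-961, a peptide that blocks the insulin receptor. They received 2 daily doses of 100 nmol/kg over 3 days, and the others received no S-961. This gave 3 virgin S-961, 4 multipara S-961, 2 virgin untreated and 2 multipara untreated libraries of poly(A)-selected RNA. Whether the untreated mice were given vehicle is not stated in the labels, so injection and S-961 cannot be told apart. The labels do not state whether each library was 1 animal or a pool, and p-values here measure the spread between these libraries. In RNA of whole islets, fewer cells of a type and less RNA per cell cannot be told apart.

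STAT5 binds DNA at the palindrome TTCNNNGAA, which reads the same on both strands. The 250 bases before each annotated start site were searched for these letters in the promoter sequences of RefSeq (build GRCm38.p6), which held 13 windows for 8 of the 9 genes. No window of *Socs2* was among them. The letters were found in 2 windows, one of *Prlr* and one of *Socs3*, and in 7.02% of all 32851 promoter windows of this length. Both windows are shown because these genes gave the largest increases of the 9 genes with S-961 in multipara islets. Both windows lie inside the gene as GENCODE annotates it, before a RefSeq start downstream of its 5′ end. The *Prlr* window lies at chr15:10223656-10223905 on the plus strand, and the match begins 110 bases before that RefSeq start. The *Socs3* window lies at chr11:117969367-117969616 on the minus strand, and its match begins 154 bases before that RefSeq start. Capitals mark the match, and the sequences run 5′ to 3′ on the strand of the gene.
Prlr: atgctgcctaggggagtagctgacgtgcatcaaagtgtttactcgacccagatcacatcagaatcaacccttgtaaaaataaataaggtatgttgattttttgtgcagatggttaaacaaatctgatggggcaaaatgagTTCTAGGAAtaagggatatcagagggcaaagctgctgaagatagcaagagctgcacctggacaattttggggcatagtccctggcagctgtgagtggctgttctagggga
Socs3: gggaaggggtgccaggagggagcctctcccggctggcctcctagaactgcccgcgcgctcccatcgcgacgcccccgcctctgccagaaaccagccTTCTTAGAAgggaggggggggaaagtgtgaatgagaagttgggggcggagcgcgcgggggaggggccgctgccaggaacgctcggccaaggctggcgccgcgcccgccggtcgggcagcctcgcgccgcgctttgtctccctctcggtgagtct
A match of letters is a description of the sequence and not a measured binding site.

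The libraries held 22028507 to 32234146 counts each. The islet endocrine markers were above 0 in all libraries, and the insulin genes made up 35.3% to 41.4% of counts in untreated and 13.2% to 20.7% in S-961 libraries. The sum of 9 acinar markers, genes of the digestive enzyme cells around the islets, was 42.7 to 108 CPM (counts relative to a common library size, scaled by the TMM method) in untreated, with *Ptf1a* at 0 in virgin replicate 2 and multipara replicate 1, and 1445 to 10250 CPM in S-961 libraries. Multipara untreated replicate 1 stood apart by its 8 leukocyte markers, which summed to 856 CPM against 39.6 to 128 CPM in the other 10 libraries, with *Cd3e* at 0 in multipara S-961 replicate 2 and multipara untreated replicate 2. Its 7 interferon targets summed to 254 CPM, against 33.0 to 88.9 CPM in the other 10. Its 5 red cell markers summed to 2381 CPM, with 486 CPM in multipara untreated replicate 2 and 56.1 to 707 CPM elsewhere. All 5 red cell markers were higher in both multipara untreated libraries than in the virgin untreated ones (157 and 206 CPM), by a median of 3.12 on the log2 scale. Multipara S-961 replicate 4 was close to virgin S-961 replicates 1 and 2. A chi-square statistic of its counts, averaged over genes, was 9.19 and 11.1 against these libraries. It was 41.8 against virgin S-961 replicate 3 and 53.4 to 88 against the other multipara S-961 libraries. Virgin S-961 replicate 3 was itself at 53.9 and 59.1 against virgin S-961 replicates 1 and 2. The 6 proliferation genes of multipara S-961 replicate 4 summed to 11.5 CPM, within the 10.5 to 28.8 CPM of the virgin S-961 libraries. The other multipara S-961 libraries had 125 to 279 CPM. The list thus lay higher in multipara than in virgin S-961 islets, by a median of 3.1 on the log2 scale with 0 called. Parity was taken from the label of each library and was not checked by another measure. The values of the 9 genes are given without multipara untreated replicate 1 or multipara S-961 replicate 4 where these matter. Those of the other pathway genes are given under alternatives chosen after seeing the data.

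**Figure D1:**
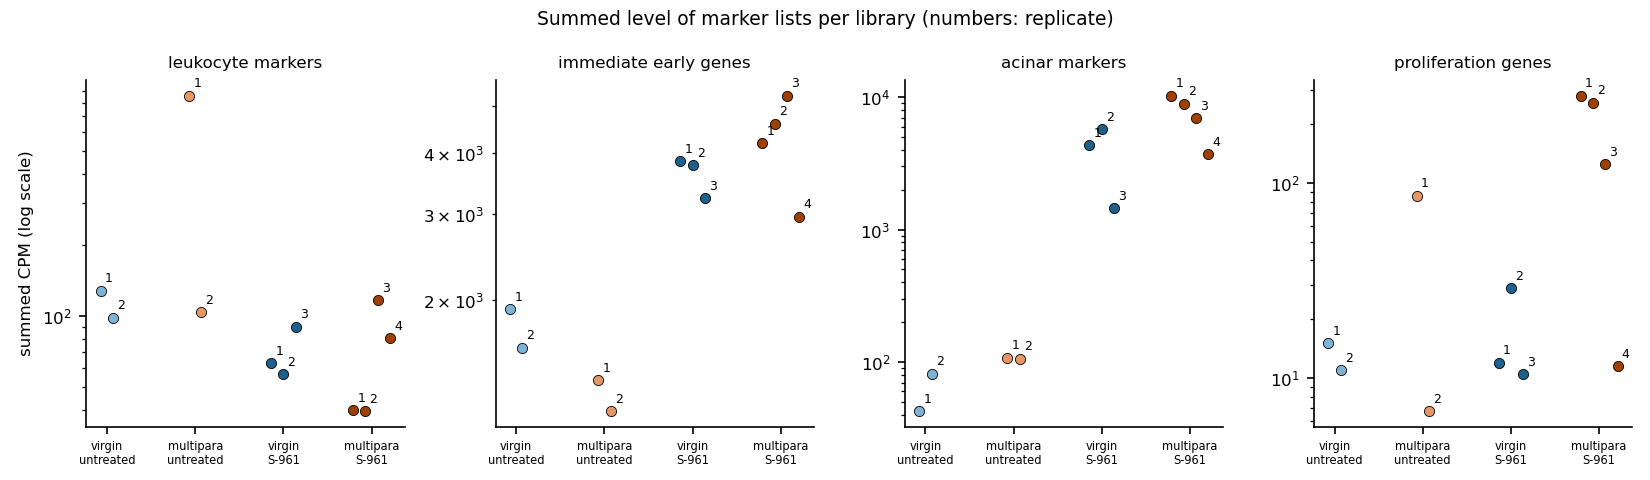
Summed CPM of 4 gene lists in each library on a log axis, 1 point per library, labelled by its replicate number. Leukocyte markers are highest in multipara untreated replicate 1 (856 CPM), acinar markers and immediate early genes are higher in every S-961 library than in every untreated one, and proliferation genes of multipara S-961 replicate 4 (11.5 CPM) lie among those of the virgin S-961 libraries.

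Every stage of the pathway from receptor to inhibitor was expressed, at levels that spanned more than an order of magnitude. Levels of different genes were compared per kilobase of exon. In untreated virgin islets, the receptors were highest and overlapped, *Ghr* at 16.0 ± 0.530 and *Prlr* at 15.5 ± 1.99 CPM per kb (SD, n = 2). *Socs3* at 11.2 to 12.0 and *Stat5b* at 10.9 to 11.2 CPM per kb came next and barely differed. *Jak2* followed at 5.22 to 5.67 CPM per kb, then *Cish* at 3.94 to 4.63 CPM per kb and *Socs2* at 3.14 to 3.57 CPM per kb. *Stat5a* was at 1.54 to 1.65 CPM per kb. *Socs1* was lowest, at 0.138 to 0.171 CPM per kb. Of the STAT5 pair, *Stat5b* was the more abundant in all 11 libraries. Its level per kilobase was 4.71 and 6.2 times that of *Stat5a* in the multipara untreated libraries, 6.78 and 7.05 times in the virgin untreated libraries and 7.9 to 10.3 times in the 7 S-961 libraries. The values of *Stat5a* and *Stat5b*, which are neighbours on chromosome 11 with near-identical stretches of coding sequence, were not whole numbers in any of the 11 libraries, so reads shared with other genes had been divided and their ratio carries that uncertainty.

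**Figure D2:**
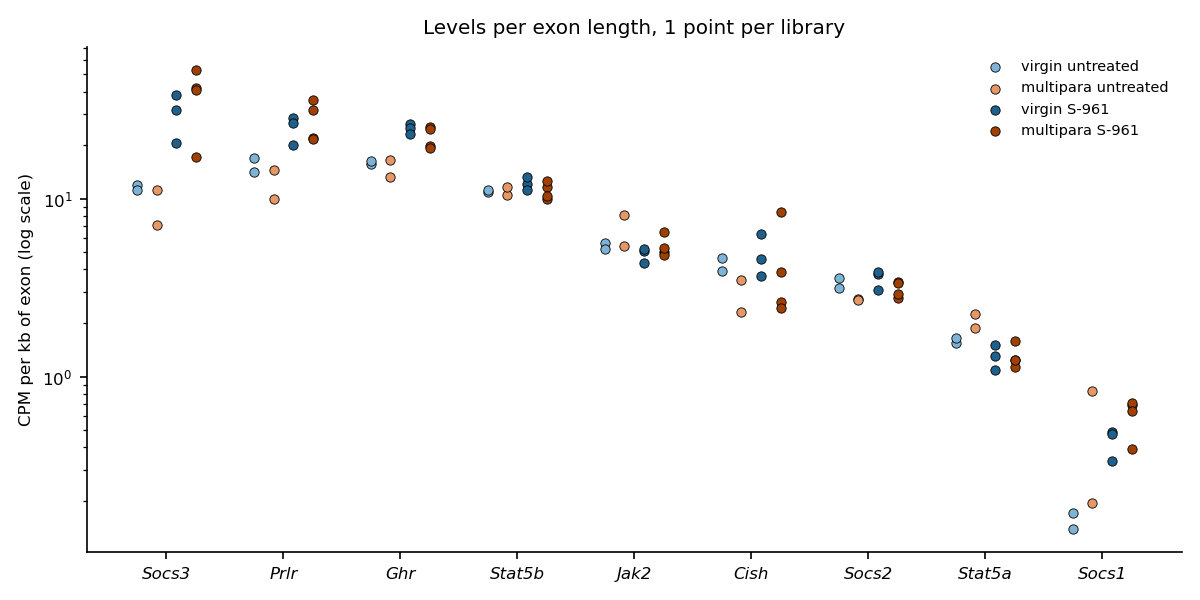
Level of each of the 9 genes in CPM per kilobase of exon, on a log axis, 1 point per library and 1 colour per group, ordered by the mean over all libraries. *Stat5b* lies above *Stat5a* in every library, and *Socs1* is lowest.

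The ligands were not measured as islet transcripts. *Prl*, *Prl3d1*, *Prl3b1* and *Prl8a2*, which encode prolactin and placental prolactin-family hormones, were at 0 in all 11 libraries, where a count of 0 allows up to 0.0773 to 0.189 CPM depending on the library, counting error only. *Gh* had 0.0592 CPM in multipara S-961 replicate 4 and *Prl2c2* had 0.0583 CPM in multipara S-961 replicate 2, both below that limit, and both were at 0 elsewhere.

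The comparison of S-961 with untreated describes how the pathway differed between islets of mice given S-961 and of mice not given it. These libraries also differed in acinar RNA and in the share of insulin counts. A difference in mouse cohort or islet isolation, if any, cannot be told apart from S-961. Both receptors were higher with S-961. The prolactin receptor gene *Prlr* (ENSMUSG00000005268, chromosome 15: 10177238 to 10349180, plus strand, GRCm38) had 259 and 216 CPM in virgin untreated libraries and 435, 411 and 308 CPM in virgin S-961 libraries. In multipara islets it had 153 and 222 CPM untreated and 554, 487, 336 and 334 CPM with S-961. Each of the 7 S-961 libraries was above each of the 4 untreated libraries. The rise in multipara islets was 2.28-fold (95% interval 1.53 to 3.40; log2 fold change 1.19, SE 0.262, adjusted p = 0.00561 in the quasi-likelihood test of edgeR, adjusted by Benjamini-Hochberg over all genes tested). It was 1.29 on the log2 scale without multipara S-961 replicate 4 (adjusted p = 0.00524), and 0.95 without multipara untreated replicate 1 (adjusted p = 0.0693). In virgin islets the log2 fold change of *Prlr* was 0.69 (SE 0.267), which did not pass the threshold of 0.05 (adjusted p = 0.0653), although the groups did not overlap.

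The growth hormone receptor gene *Ghr* (ENSMUSG00000055737, chromosome 15: 3317760 to 3583492, minus strand) had 141 and 148 CPM in virgin untreated and 239, 226 and 208 CPM in virgin S-961 libraries. Multipara islets had 120 and 150 CPM untreated and 179, 175, 229 and 223 CPM with S-961. The S-961 and untreated libraries did not overlap in either parity group. *Ghr* rose 1.54-fold in virgin islets (1.2 to 1.99; log2 fold change 0.63, SE 0.165, adjusted p = 0.013). In multipara islets it rose 1.49-fold (1.17 to 1.90; log2 fold change 0.58, SE 0.158, adjusted p = 0.0157). The virgin call was lost without virgin untreated replicate 1 (log2 fold change 0.59, adjusted p = 0.099) or 2 (0.66, adjusted p = 0.0783), and the multipara call without multipara untreated replicate 1 (0.42, adjusted p = 0.165).

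The signal carriers inside the cell differed little or in the other direction. The kinase gene *Jak2* (ENSMUSG00000024789, chromosome 19: 29251828 to 29313080, plus strand) ran from 21.9 to 32.6 CPM over the S-961 libraries, with 28.5 and 26.3 CPM in virgin untreated and 40.9 and 27.3 CPM in multipara untreated libraries. The value of 40.9 CPM was in the library with the high leukocyte markers. *Jak2* differed by -0.16 on the log2 scale in virgin islets (95% interval -0.57 to 0.25, adjusted p = 0.534) and by -0.34 in multipara islets (-0.72 to 0.05, adjusted p = 0.148), values that were 0.31 and 0.23 when libraries were scaled by total counts only. *Stat5b* (ENSMUSG00000020919, chromosome 11: 100780731 to 100850724, minus strand) lay between 55.4 and 73.7 CPM in all 11 libraries. Its log2 difference was 0.15 in virgin islets (-0.15 to 0.44) and 0.00 in multipara islets (-0.28 to 0.28), so that the intervals reached 1.35-fold and 1.21-fold upwards.

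*Stat5a* (ENSMUSG00000004043, chromosome 11: 100859351 to 100885169, plus strand) was the member that fell. It had 16.0 and 13.5 CPM in multipara untreated libraries and 8.88, 8.04, 8.79 and 11.3 CPM in multipara S-961 libraries, a log2 fold change of -0.67 (SE 0.182, adjusted p = 0.0148). The groups did not overlap. In virgin islets the values were 10.99 and 11.7 CPM untreated and 10.8, 9.31 and 7.74 CPM with S-961, which also did not overlap, but the difference of -0.30 did not pass the test (adjusted p = 0.259). The multipara call was lost without multipara untreated replicate 1 (-0.54, adjusted p = 0.138), the library with the high leukocyte markers, whose part in the result was not tested. It was also lost when libraries were scaled by total counts only (-0.10, adjusted p = 0.701), a scaling that moved the median of all genes by 0.58 on the log2 scale. *Stat5a* overlaps *Stat3* on the opposite strand.

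Of the feedback inhibitors, *Socs3* gave the largest change of the 9 genes in multipara islets. Its product binds JAK2 and cytokine receptors and blocks signalling, and many cytokines induce it. *Socs3* (ENSMUSG00000053113, chromosome 11: 117966079 to 117970047, minus strand) had 34.7 and 32.3 CPM in virgin untreated and 110, 90.6 and 59.5 CPM in virgin S-961 libraries. In multipara islets it had 32.4 and 20.5 CPM untreated and 121, 118, 153 and 49.8 CPM with S-961. All S-961 libraries were above all untreated ones, and multipara S-961 replicate 4 was the lowest of the 7. The rise was 4.15-fold in multipara islets (2.19 to 7.88; log2 fold change 2.05, SE 0.419, adjusted p = 0.00373) and 2.58-fold in virgin islets (1.37 to 4.87; log2 fold change 1.37, SE 0.415, adjusted p = 0.0251). The multipara rise was 2.30 on the log2 scale without multipara S-961 replicate 4 and 2.43 without multipara untreated replicate 1, and passed the test both times. The virgin call was lost when any 1 of virgin S-961 replicates 1 and 2 or virgin untreated replicates 1 and 2 was left out, with log2 fold changes of 1.16 to 1.42 and adjusted p-values of 0.0576 to 0.143.

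*Socs3* stood beside another group of quickly induced genes that moved with treatment. The 11 immediate early genes, which respond within minutes to hormones, growth factors and stress, summed to 1182 to 1915 CPM in untreated and 2959 to 5244 CPM in S-961 libraries. Of these, 4 were called higher and 0 lower in virgin islets, and 8 higher and 0 lower in multipara islets, with median log2 fold changes of 0.66 and 1.58. Of all genes tested, 18.8% were called higher in virgin and 18.2% in multipara islets, and 36.5% and 37.6% in either direction. The 4 of 11 in virgin islets are at the share called in either direction, but all 4 were increases. Higher without overlap were 6 of 11 in virgin and 8 of 11 in multipara islets, against 33% and 24.6% of all genes. *Nr4a1* rose from 15.2 to 19.3 CPM in untreated libraries to 278 to 538 CPM with S-961 (log2 fold change 4.80 in virgin and 4.38 in multipara islets). The part of these genes, and of the acinar RNA, in the change of *Socs3* was not tested.

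The STAT5 target *Cish* (ENSMUSG00000032578, chromosome 9: 107296026 to 107302784, plus strand), a common readout of lactogen signalling, varied widely within groups. It had 29.7 and 25.3 CPM in virgin untreated and 23.6, 29.5 and 40.8 CPM in virgin S-961 libraries. Multipara islets had 22.6 and 14.9 CPM untreated and 16.9, 24.9, 54.2 and 15.7 CPM with S-961. The value of 54.2 CPM in multipara S-961 replicate 3 was the highest of all libraries and that of replicate 4 among the lowest. The log2 difference was 0.18 in virgin islets (-0.86 to 1.22, adjusted p = 0.795) and 0.57 in multipara islets (-0.45 to 1.59, adjusted p = 0.351), so that the intervals reached 2.33-fold and 3.00-fold upwards. *Socs2* (ENSMUSG00000020027, chromosome 10: 95385362 to 95417180, minus strand), the other classical STAT5 target and the main brake on growth hormone signalling, was steadier, between 25.8 and 36.9 CPM in all libraries. Its log2 difference was 0.09 in virgin (-0.23 to 0.41) and 0.19 in multipara islets (-0.12 to 0.50).

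*Socs1* (ENSMUSG00000038037, chromosome 16: 10782240 to 10785536, minus strand), which inhibits JAK kinases and is strongly induced by interferons, was scarce. It had 0.496 and 0.402 CPM in virgin untreated and 1.42, 1.39 and 0.972 CPM in virgin S-961 libraries, which did not overlap (log2 difference 1.48, SE 0.571, adjusted p = 0.065). In multipara islets it had 2.41 and 0.566 CPM untreated and 2.01, 2.07, 1.13 and 1.87 CPM with S-961. The highest value of all was again in multipara untreated replicate 1. With that library the log2 difference in multipara islets was 0.23 (adjusted p = 0.744), and without it 1.63 (adjusted p = 0.0648).

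Counted over the 9 genes, 2 were called higher and 0 lower with S-961 in virgin islets, where 18.8% of the 17996 genes tested were called higher and 17.6% lower. In multipara islets 3 were called higher and 1 lower, against 18.2% and 19.4% of all genes tested. The median log2 fold change of the 9 genes was 0.18 in virgin and 0.22 in multipara islets, and that of all genes tested was -0.04 and 0.03. Groups did not overlap for 5 genes higher and 2 lower in virgin islets (33% and 35.3% of all genes tested, 68.3% together) and for 4 higher and 1 lower in multipara islets (24.6% and 24.3%, 48.9% together). Before adjustment, 4 of the 9 genes had a p-value under 0.05 in edgeR's test in each parity group, against 46.4% and 47.8% of all genes. In either direction, 36.5% of all genes tested were called in virgin and 37.6% in multipara islets, so that 2 and 4 of the 9 genes are near the background. The virgin and multipara comparisons do not share libraries, but their spread was estimated over all 11. The virgin count was 4 with DESeq2 in place of edgeR's test, *Prlr* and *Socs1* being added.

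**Figure D3:**
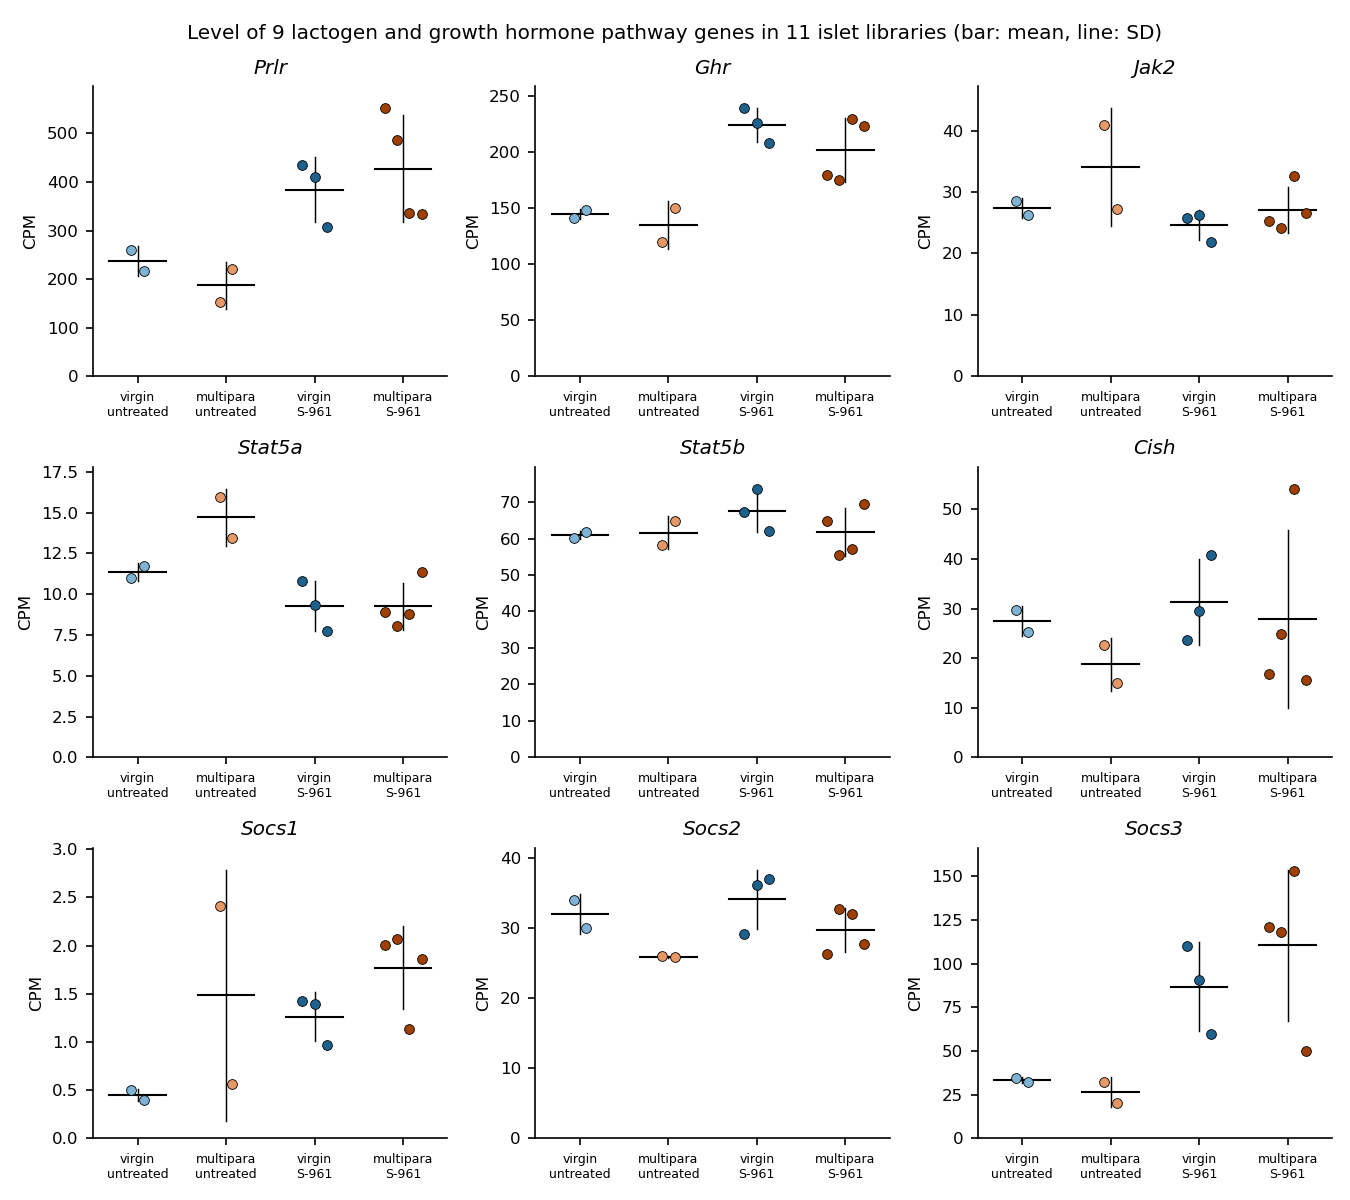
CPM of the 9 genes in each of the 11 libraries, 1 point per library, with the mean (bar) and SD (line) of the 4 groups, which hold 2, 2, 3 and 4 libraries. For *Prlr*, *Ghr* and *Socs3* every S-961 library lies above every untreated library, while *Stat5b* stays between 55.4 and 73.7 CPM throughout.

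Whether earlier pregnancies had left a mark on the pathway was asked by comparing multipara with virgin islets within each treatment. No mark was detected on any of the 9 genes at this number of libraries. In S-961 islets 0 of the 9 genes passed the threshold in edgeR's test, where 0% of the 16784 genes tested did so, and 0 had an unadjusted p-value under 0.05, against 9.71% of all genes. The groups of all 9 genes overlapped, while 8.84% of all genes tested did not, 5.21% being higher and 3.63% lower in multipara. DESeq2 called 0 of the 9 genes as well. The receptors differed by 0.17 on the log2 scale for *Prlr* (-0.32 to 0.66) and by -0.14 for *Ghr* (-0.46 to 0.19). For the kinase and transcription factors the differences were 0.16 for *Jak2* (-0.16 to 0.48), 0.01 for *Stat5a* (-0.39 to 0.42) and -0.12 for *Stat5b* (-0.39 to 0.15). These 5 intervals hold no difference above 1.58-fold in either direction. Of the inhibitors, *Socs2* differed by -0.19 (-0.50 to 0.13). The other inhibitors were less tightly bounded, with -0.14 for *Cish* (-1.10 to 0.82), 0.50 for *Socs1* (-0.22 to 1.22) and 0.38 for *Socs3* (-0.42 to 1.17).

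Leaving out multipara S-961 replicate 4, the library close to virgin S-961 replicates 1 and 2, still gave 0 calls among the 9 genes. Of all genes, 525 were then called. *Socs3* then differed by 0.62 on the log2 scale (SE 0.226, adjusted p = 0.213), *Prlr* by 0.28 (adjusted p = 0.593) and *Cish* by 0.06 (adjusted p = 0.962).

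In untreated islets, with 2 libraries on each side, 0 of the 9 genes passed the threshold and 0% of the 15812 genes tested did. An unadjusted p-value under 0.05 was found for 1 of the 9 genes, against 5.62% of all genes, and DESeq2 called 0 of the 9. That gene was *Socs2*, at 34.0 and 29.9 CPM in virgin and 26.0 and 25.8 CPM in multipara libraries, a log2 difference of -0.30 (SE 0.098) with an adjusted p = 0.719 in edgeR's test. Groups did not overlap for 4 of the 9 genes, higher in multipara for *Stat5a* (0.38) and *Socs1* (1.76) and lower for *Cish* (-0.54) and *Socs2*, where 36.1% of all genes did not overlap, 17.3% higher and 18.8% lower. *Prlr* differed by -0.35 (-0.87 to 0.18) and *Ghr* by -0.10 (-0.41 to 0.21).

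Several of these untreated values rested on 1 library. Without multipara untreated replicate 1, in which the leukocyte and red cell markers were high, the difference of *Socs1* was 0.31 and that of *Jak2* was -0.03, while *Cish* was called lower by 0.91 on the log2 scale (adjusted p = 0.0451). Without multipara untreated replicate 2, in contrast, *Jak2* (0.59, adjusted p = 0.0097) and *Socs1* (2.42, adjusted p = 0.0125) were called higher and *Prlr* lower (-0.62, adjusted p = 0.0277). With 1 multipara library left, that library is assumed to vary like the virgin ones. Leukocyte markers were at 856 CPM in one and at 104 CPM in the other of these 2 libraries, and red cell markers at 2381 and 486 CPM. Their part in the values was not tested.

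The response to S-961 was also compared between multipara and virgin islets as an interaction. None of the 9 genes passed, nor did any of the 17996 genes tested (0%), and 0 of the 9 had an unadjusted p-value under 0.05 in edgeR's test, against 6.55% of all genes. DESeq2 called 0 of the 9. The estimate for *Prlr* was 0.50 on the log2 scale (-0.30 to 1.30, adjusted p = 0.851) and that for *Socs3* was 0.69 (-0.53 to 1.91, adjusted p = 0.869), the difference of a multipara from a virgin response. Passing the threshold in multipara and missing it in virgin islets, as *Prlr* and *Stat5a* did, is therefore not a shown difference between the parity groups. The estimate for *Socs1* was -1.25 (-2.89 to 0.39), and 0.16 without multipara untreated replicate 1.

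**Figure D4:**
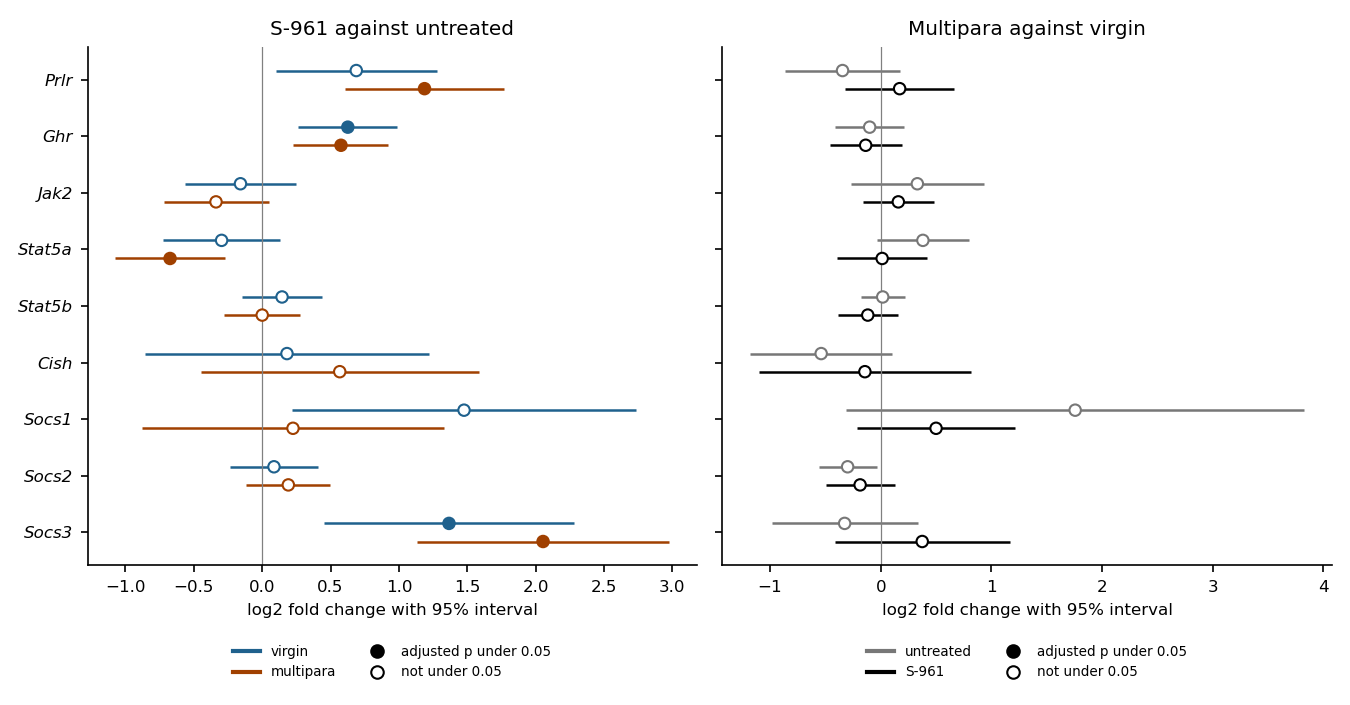
Log2 fold change (points) with its 95% interval (lines) for the 9 genes, with S-961 against untreated on the left and multipara against virgin on the right. Filled points passed an adjusted p-value of 0.05, namely *Ghr* and *Socs3* in virgin islets and *Prlr*, *Ghr*, *Stat5a* and *Socs3* in multipara islets, all on the left.

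The wider pathway was described with lists of other receptors, kinases, STAT factors, inhibitors, adaptors and target genes. With S-961, 3 of 11 other class I cytokine receptors were called in virgin islets, 2 higher and 1 lower, and 5 of 11 in multipara islets, 1 higher and 4 lower. Their median log2 fold changes were -0.27 and -0.54, against -0.04 and 0.03 over all genes. In either direction 36.5% of all genes were called in virgin and 37.6% in multipara islets. Without multipara untreated replicate 1, the median of these receptors in multipara islets was 0.38, so that its sign rested on that library. *Lifr*, a subunit of the leukemia inhibitory factor receptor, was at 46.1 to 56.8 CPM in untreated and 74.5 to 129 CPM in S-961 libraries and rose in both groups (log2 fold change 1.17 in virgin and 0.90 in multipara islets, adjusted p = 0.00283 and 0.00872), with 0.78 in multipara islets without that library (adjusted p = 0.0874). *Il6ra*, the interleukin-6 receptor subunit, fell from 175 to 246 CPM to 95.9 to 162 CPM (log2 fold changes of -1.196 and -0.66, adjusted p = 0.00132 and 0.0186). *Csf2rb*, a shared receptor subunit of myeloid cytokines, was at 27.0, 29.3 and 48.5 CPM in virgin S-961 libraries against 4.08 and 2.77 CPM untreated (3.34, adjusted p = 0.0353). In multipara S-961 libraries *Csf2rb* was at 2.50, 2.65 and 7.66 CPM in replicates 1 to 3 and at 21.9 CPM in replicate 4. The multipara untreated values of *Csf2rb* were 22.2 CPM in replicate 1, the library with the high leukocyte markers, and 2.08 CPM in replicate 2, and the difference of -0.51 was not called (adjusted p = 0.673).

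Other kinases and STAT factors gave few calls. With 36.5% of all genes called in virgin and 37.6% in multipara islets, counts in lists this short are near the background. None of the 3 other JAK kinases was called in either parity group. Of 4 other STAT factors, 0 were called in virgin islets and 1 was lower in multipara islets, *Stat4* (-2.94, adjusted p = 0.0212). *Stat4* was at 7.13 CPM in multipara untreated replicate 1 and at 0.181 to 0.874 CPM in the other 10 libraries, so that the multipara S-961 and untreated libraries overlapped. Of 7 interferon targets, 2 were called lower in each parity group. Of all genes tested, 17.6% were called lower in virgin and 19.4% in multipara islets, so these counts of calls are near the background. In virgin islets all 7 lay below 0, with a median log2 fold change of -0.85. Of these, 6 were lower without overlap, against 35.3% of all genes. In multipara islets 6 lay below 0 and 1 above, with a median of -0.97 and 0 lower without overlap. *Gbp2* was at 99.95 CPM in multipara untreated replicate 1 and at 1.52 to 7.11 CPM in the other libraries (-3.43 in multipara islets, adjusted p = 0.00527). This is the library with the high leukocyte markers, and their part in these values was not tested. Without it, the multipara difference was 0.62 for *Stat4* and 0.20 for *Gbp2*. The multipara median of the 7 interferon targets was then 0.44.

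Among the other inhibitors, 2 of the 4 remaining SOCS genes were called higher in virgin S-961 islets, against 18.8% of all genes tested. In multipara islets 0 were called, while 3 of 4 were higher without overlap, as were 24.6% of all genes tested. *Socs4* was at 16.9 and 14.8 CPM in virgin untreated and 26.5, 26.7 and 24.9 CPM in virgin S-961 libraries (0.71, SE 0.147, adjusted p = 0.00399), and *Socs5* rose by 0.40 on the log2 scale (adjusted p = 0.0288). The interaction was -0.42 for *Socs4* (adjusted p = 0.766) and -0.14 for *Socs5* (adjusted p = 0.929), which is not a shown difference between the parity groups. A list of 10 phosphatases, PIAS proteins and other negative regulators gave 1 higher (*Sh2b3*, an adaptor that restrains cytokine signalling, 0.67, adjusted p = 0.0342) and 1 lower (*Ptpn1*, -0.44, adjusted p = 0.0432) in virgin islets. In multipara islets 1 was lower, the phosphatase gene *Ptpn6* (-0.90, adjusted p = 0.0113). *Ptpn6* was at 86.4 CPM in the library with the high leukocyte markers and at 32.2 to 40.0 CPM in the S-961 libraries. Without that library the difference of *Ptpn6* was -0.19 (adjusted p = 0.354).

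Adaptors link these receptors to the insulin and growth factor pathways. Of 7, 3 were called higher and 1 lower in virgin islets, and 2 higher and 1 lower in multipara islets. With 36.5% and 37.6% of all genes called in either direction, 3 of 7 in multipara islets is near the background. *Irs2*, which carries the insulin and insulin-like growth factor signal in β cells, was at 33.1 and 37.6 CPM in virgin untreated and 156, 126 and 104 CPM in virgin S-961 libraries. In multipara islets it was at 27.5 and 25.1 CPM untreated and 224, 148, 187 and 113 CPM with S-961. No S-961 library overlapped the untreated ones, and the log2 fold change was 1.86 (SE 0.278, adjusted p = 0.000764) in virgin and 2.67 (SE 0.284, adjusted p = 0.000149) in multipara islets. *Irs1* rose by 2.06 and 1.95 on the log2 scale, and *Grb2* fell by 0.33 and by 0.49 on the log2 scale. Without multipara untreated replicate 1, *Irs2* (2.74, adjusted p = 0.00232) and *Irs1* (1.77, adjusted p = 0.0293) kept their multipara calls and *Grb2* did not (-0.31, adjusted p = 0.127).

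The 14 genes listed as STAT5 targets or as responding to lactogens in islets did not all move one way. With S-961, 11 lay above 0 and 3 below 0 in each parity group, with a median log2 fold change of 0.29 in each. Of the 14, 3 were called higher and 1 lower in virgin islets, and 2 higher and 2 lower in multipara islets. These counts of 4 of 14 lie under the 36.5% and 37.6% of all genes called. *Tnfrsf11b*, which encodes the secreted receptor osteoprotegerin, was at 2.75 and 2.49 CPM in virgin untreated and 49.2, 47.8 and 41.0 CPM in virgin S-961 libraries (log2 fold change 4.13, SE 0.662, adjusted p = 0.00108). In multipara islets *Tnfrsf11b* was at 4.86 and 5.78 CPM untreated and at 12.8, 15.9, 9.05 and 46.5 CPM with S-961 (1.98, SE 0.581, adjusted p = 0.0213). Multipara S-961 replicate 4 was thus again at the virgin level, and the interaction for *Tnfrsf11b* was -2.15 with an adjusted p = 0.706 in edgeR's test. Without replicate 4, *Tnfrsf11b* differed by 1.24 with S-961 in multipara islets (adjusted p = 0.00358) and by -1.85 from virgin S-961 islets (adjusted p = 0.0045), and the interaction was -2.89 (adjusted p = 0.0157). Without multipara untreated replicate 1 the multipara difference was 1.86 and was not called (adjusted p = 0.131).

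*Tph1*, the serotonin synthesis gene that rises strongly in β cells of pregnant mice, was at 0 in both virgin untreated libraries and at 0.401 and 0.377 CPM in the multipara untreated libraries. With S-961, *Tph1* was at 2.01, 1.75 and 4.53 CPM in virgin and 1.17, 4.25, 1.06 and 0.592 CPM in multipara libraries. The virgin difference passed the test (adjusted p = 0.002), with no fold given against a group at 0, and the multipara difference of 2.16 did not (adjusted p = 0.0747). The cell cycle gene *Ccnd2*, a lactogen-responsive cyclin of β cells, was at 431 to 707 CPM in all libraries and passed in no comparison. Its relative *Ccnd1* rose by 0.93 in virgin and 1.04 in multipara islets on the log2 scale (adjusted p = 0.0135 and 0.00683), with 0.98 in multipara islets without multipara untreated replicate 1 (adjusted p = 0.0608). The survival gene *Bcl2l1* fell by 0.63 and by 0.65 on the log2 scale (adjusted p = 0.0023 and 0.00148).

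**Figure D5:**
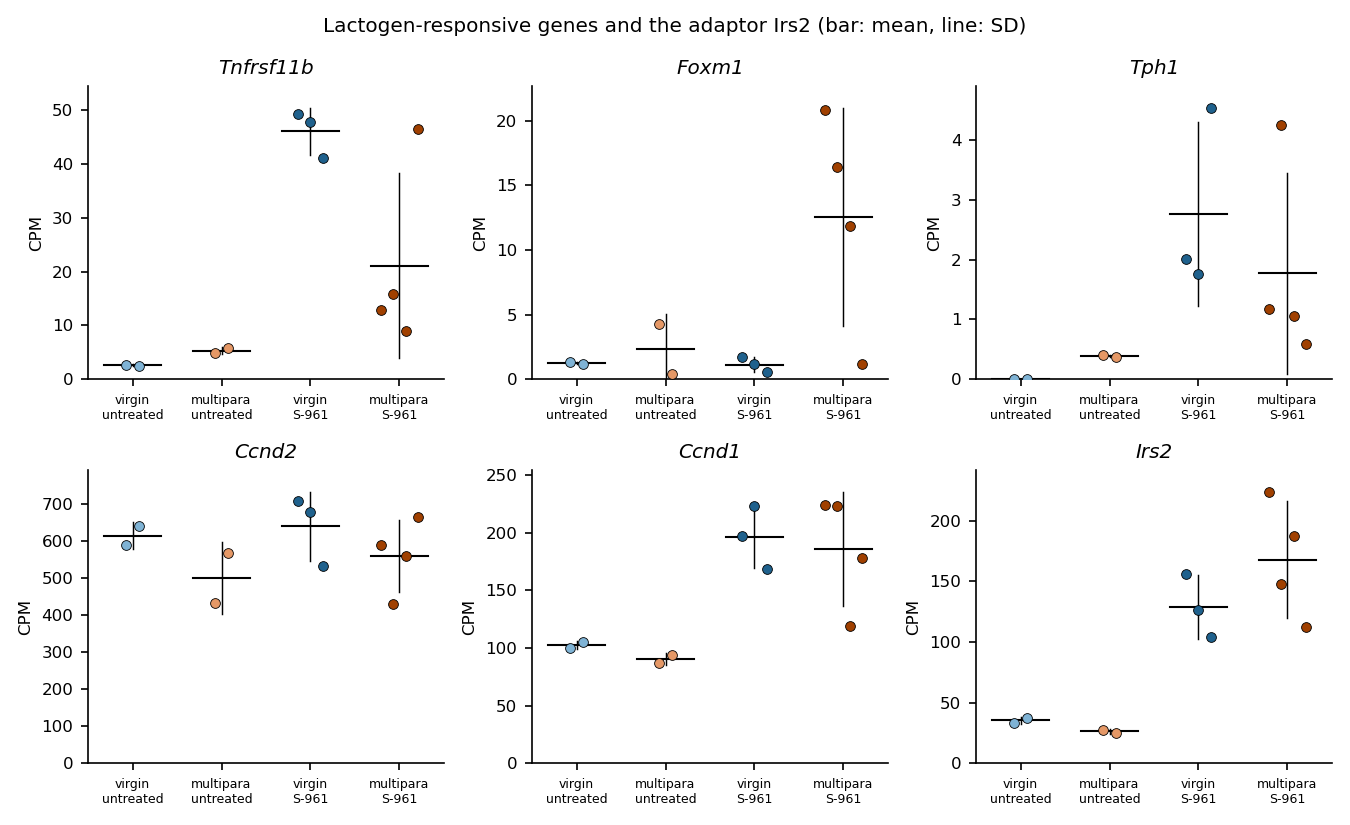
CPM of 5 lactogen-responsive genes and of the adaptor gene *Irs2* in each of the 11 libraries, 1 point per library, with the mean (bar) and SD (line, cut at 0) of the 4 groups. *Irs2* and *Ccnd1* are higher in every S-961 library, *Ccnd2* is not, and multipara S-961 replicate 4 lies with the virgin S-961 libraries for *Tnfrsf11b* (46.5 CPM) and *Foxm1* (1.18 CPM).

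Between multipara and virgin islets, none of the other pathway genes was called by edgeR in either treatment or in the interaction with all libraries included. In S-961 islets the largest difference in the target list was that of *Foxm1*, a transcription factor of dividing cells that lactogens induce in β cells. The difference was not particular to this list. All 6 proliferation genes were likewise higher in multipara S-961 islets, by a median of 3.1 on the log2 scale, with overlapping groups and 0 called. All 6 had an unadjusted p-value under 0.05 in edgeR's test, against 9.71% of all genes. Their median was 3.49 without multipara S-961 replicate 4. *Foxm1* was at 1.70, 1.18 and 0.551 CPM in virgin and 20.8, 16.4, 11.9 and 1.18 CPM in multipara S-961 libraries (log2 difference 3.48, SE 0.842, adjusted p = 0.315). Replicates 1 to 3 of the multipara group were above all virgin libraries and replicate 4 was among them. Without replicate 4 the difference of *Foxm1* was 3.86 (SE 0.391, adjusted p = 0.00392), and *Csf2rb* was called lower in multipara by 3.00 on the log2 scale (adjusted p = 0.015). Replicate 4 was set apart after its values were seen, the low proliferation genes among them. The values without it are therefore descriptions, and the p-value of *Foxm1* is no independent test. The 7 interferon targets also lay higher in multipara S-961 islets, by a median of 1.66 on the log2 scale against 0 over all genes, with 6 of 7 not overlapping, against 5.21% of all genes, and 0 called. Their sums were 66.4, 88.9, 83.7 and 38.0 CPM in multipara and 33.0 to 35.9 CPM in virgin S-961 libraries, the lowest multipara value being that of replicate 4. Without replicate 4 the median was 1.74 and 5 of 7 were called higher. Markers of some other cell types also lay higher, with 0 called. The 6 stromal markers summed to 124.5 to 282 CPM in multipara and 63.4 to 67.7 CPM in virgin S-961 libraries, 5 of 6 not overlapping, with a median difference of 1.53 on the log2 scale. The median was 1.11 for duct and 1 for acinar markers. It was 0.07 for leukocyte and 0.08 for endothelial markers, and -0.24 for the 1 adipocyte marker tested. All 5 red cell markers lay lower, with a median of -1.66 and 0 called. Each of these 5 had an unadjusted p-value under 0.05 in edgeR's test. The part of these cells in the values was not tested.

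The genes whose pattern over the 11 libraries was most like that of *Prlr* and *Cish* were sought among 11286 expressed genes, by the root mean square difference of centred log2 CPM. For *Prlr* they were *Cgn* at 0.135, *Zdhhc15* at 0.171 and *Akr1c14* at 0.181, where the median gene was at 0.58. *Cgn*, which encodes a tight junction protein, ran from 35.0 to 46.8 CPM in untreated and from 58.2 to 98.1 CPM in S-961 libraries, without overlap, as *Prlr* did. For *Cish* the nearest genes were farther away, *Slc40a1* at 0.371, *Errfi1* at 0.395 and *Snx16* at 0.406, with the median gene at 0.644. *Slc40a1*, the iron exporter, reached its highest value of 77.6 CPM among the multipara S-961 libraries. The likeness is over 11 libraries that share the S-961 difference and their proportions of cell types.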

How the data were processed

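The libraries were bulk RNA-seq of islets, prepared with the TruSeq Stranded mRNA kit. The authors deposited expected counts of reads per gene for each library, without normalization, and per the labels STAR and RSEM were used with GRCm38 (mm10), without versions. All 55536 identifiers and symbols matched GENCODE M21, which gave coordinates and exon lengths. Expected counts were rounded to whole counts. Groups came from the labels.

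Tests used edgeR 4.0.16 (R 4.3.3). Libraries were scaled by TMM, genes were kept by filterByExpr at a minimum count of 10 and a total of 15, and groups were compared by the quasi-likelihood F-test and Benjamini-Hochberg adjustment over all genes tested, with a threshold of 0.05 and 95% intervals. Multipara was compared with virgin on the libraries of 1 treatment, and S-961 with untreated, and the interaction, on all 11. CPM came from all 11 libraries normalized together, per kilobase (1000 bases) of merged exons where stated, and log2 CPM (prior count 2) of genes with a mean of at least 2 served for likeness. A floor of 3 counts marks what a count of 0 allows. DESeq2 1.42.0, other scalings, no filter, a replicate block and each library left out were alternatives. For genes other than the 9, leaving out a library was chosen after seeing the data. The fits were tested on simulated data. Figures were drawn with matplotlib 3.10.9 (Python 3.11.15).

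Library totals of 22028507 to 32234146 counts (median 29866486) make the spread between libraries, not counting error, the main limit, except for *Socs1* and *Tph1*. No library was a repeat of another: over the 11 pairs of 1 group, the chi-square statistic per gene (genes with at least 10 reads) was 8.9 to 116. No preparation batch is given in the labels. The 9 genes, the lists and the tests were chosen with earlier results of these data known, so the counts over lists are descriptions, and some genes of the lists are not reported here. Named were all 9 genes, up to 3 called genes per list and comparison by smallest p, otherwise the gene with the largest difference, *Tph1* and *Ccnd2*, and the 3 genes most like *Prlr* and *Cish*. *Cd3e*, *Ptf1a* and the genes flagged for a closer look were named after their values were seen.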

Additional observations from a re-analysis of the deposited data

Results flagged for a closer look

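The search covered 86 genes of the pathway, immediate early and proliferation lists, and no cell type markers. Of these, 4 had 1 library far from the rest of the 4 multipara S-961 libraries by Dixon's test. The test takes the gap to the nearest library as a share of the group's range. Chance gives about 1 in 20. The share was 0.858 for *Il4ra*, 0.9 for *Isg15*, 0.883 for *Pias4* and 0.843 for *Tph1*. *Il4ra* was at 14.8 CPM in multipara S-961 replicate 3, against 5.57 to 6.87 CPM in the other 3. *Isg15* (2.56 CPM), *Pias4* (12.9 CPM) and *Tph1* (4.25 CPM) stood apart in replicate 2. None of the 9 receptor, kinase, STAT5 and inhibitor genes did so.

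For *Ptpn6*, every multipara library lay on one side of every virgin library with S-961 and on the other side without it. The log2 difference of multipara from virgin was -0.128 with S-961 and 0.79 without it. The untreated difference rested mostly on multipara untreated replicate 1, the library with the high leukocyte markers, at 86.4 CPM. The other multipara untreated library was at 38.2 CPM, against 36.2 and 36.8 CPM in the virgin untreated ones. In edgeR's interaction test the estimate was -0.92 with an adjusted p = 0.706, which did not pass.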

How the results depend on the processing

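Over 684 values of the 9 genes under alternative settings, 631 kept their direction and their side of the threshold, 11 lost a call, 18 gained one and 24 changed sign. No value that changed sign had been called. The number of genes called with S-961 in virgin islets (2) was 6 with total counts only, 4 with DESeq2 and 0 to 3 with 1 library left out (0 without virgin untreated replicate 1 or 2, 1 without virgin S-961 replicate 1 or 2). In multipara islets (4) it was 5 with total counts only and 1 to 5 with 1 library left out (1 without multipara untreated replicate 1). In untreated islets (0 between parity groups) it was 0 to 3 with 1 library left out. The S-961 parity comparison and the interaction gave 0 under every alternative run.

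Scaling by total counts only moved the median of all genes by 0.47 (virgin), 0.58 (multipara) and 0.11 (interaction) on the log2 scale and made 83.4% and 85.7% of the calls with S-961 increases, against 51.7% and 48.3% with TMM. Under it *Jak2* was at 0.31 and 0.23 with S-961, *Stat5a* at 0.17 in virgin and -0.10 in multipara islets (adjusted p = 0.701), the interaction of *Ghr* at 0.08 and the untreated parity difference of *Stat5b* at -0.03. DESeq2 put the S-961 parity difference of *Stat5a* at -0.01.

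The labels do not state whether replicate numbers pair the libraries, which were treated as unpaired. Same-numbered S-961 libraries correlated by 0.014 to 0.094 in their deviations, and differently numbered ones by -0.083 to 0.071. So few pairs cannot exclude a pairing, and 2 untreated pairs cannot show it (0.285). With the replicate block, *Ghr* lost its multipara call (0.48, adjusted p = 0.0868) and *Prlr* gained a virgin one (0.85, adjusted p = 0.0187), for counts of 3 and 3, *Cish* was at -0.18 in virgin islets and *Stat5a* at -0.08 between parity groups with S-961. Over all genes the block called 342 with S-961 and 34 in the interaction.

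With 1 library left out, the log2 difference changed sign for the following genes. In the interaction, *Cish* ran from -0.16 to 0.72, *Ghr* from -0.20 to 0.13, *Jak2* from -0.43 to 0.15 and *Socs1* from -1.92 to 0.16. Between parity groups with S-961, *Cish* ran from -0.70 to 0.09 and *Stat5a* from -0.10 to 0.13, and without it *Ghr* from -0.26 to 0.03, *Jak2* from -0.03 to 0.59 and *Stat5b* from -0.05 to 0.06. With S-961 against untreated, *Cish* ran from -0.06 to 0.35 in virgin and *Socs1* from -0.44 to 1.63 in multipara islets. Where edgeR called 0 of all genes, DESeq2 called 369 (S-961 parity), 56 (untreated) and 81 (interaction), no filter 0, 3 and 4, and leaving out 1 library up to 525, 1738 and 45. The counts of 6562 (virgin) and 6768 (multipara) with S-961 ran from 3053 to 7681 and from 3618 to 9091, lowest without virgin untreated replicate 2 (3503 without replicate 1) and without multipara untreated replicate 1, and highest with total counts only. The cause was not tested. Depth limits *Socs1*, *Tph1* and the ligands.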
